A study of Mus musculus with 8 samples.

Results

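The shNFIB cells were set directly against the shMLL1 cells at day 5 of adipogenic differentiation, library against library, without the shControl library that both are usually divided by. The genes described are those with an RPKM over 1 in at least 1 of these 2 libraries, which were 11079 of the 41325 gene symbols listed, and 10638 of them are annotated as protein coding. RPKM is the number of reads scaled to the exon length of the gene and to the mapped reads of the library. Of the 11079 genes, 10314 were over 1 in both libraries, 316 in shNFIB cells only and 449 in shMLL1 cells only. *Rhbdl3* was the gene just inside this limit and *2310068J16Rik* the gene just outside it, with higher RPKM values of 1.00 and 0.998 and log2 ratios of 0.71 and -0.62. For each gene, 0.1 was added to both RPKM values and the log2 ratio of shNFIB to shMLL1 cells was taken, so that a positive value means higher in shNFIB cells. A gene was counted as higher in one line when the ratio passed 2-fold.

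C3H10T1/2 is a mesenchymal stem cell (MSC) line from mouse and forms fat cells when insulin, dexamethasone and IBMX are given. Here the mixture was given until day 2, followed by insulin for 2 days and then by medium with serum alone. The shKDM4D, shNFIB and shMLL1 cells are stable lines that carry an shRNA in the pLKO.1 vector and were selected in puromycin. The vector and selection of the shControl cells are not given in the sources used here. Each line was sequenced once at day 0 and once at day 5, so there are 8 libraries and 1 library per condition. The study isolated several resistant clones for each target, and the clone that was sequenced is not given in the sources used here. With 1 library per condition there is no estimate of the spread between cultures and no p-value, and the targeted gene, the clone and the library cannot be told apart as the source of any difference below. The log2 ratios are given with exact 95% intervals of the ratio of the recovered reads. These intervals have no pseudocount, so at low levels they can lie outside the ratio they stand beside, and they cover counting error only.

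NFIB is a transcription factor of the nuclear factor I family, which binds DNA as a dimer at a defined sequence. MLL1, encoded by *Kmt2a*, is a histone methyltransferase that acts on lysine 4 of histone H3 in a complex with WDR5, RBBP5 and ASH2L, and trimethylation of this lysine marks active promoters. In fat cell formation, the hormones first induce C/EBPβ, and PPARγ and C/EBPα then maintain each other and switch on the genes of the fat cell.

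At day 5 the library of shMLL1 cells held 38100000 mapped reads and that of shNFIB cells 15800000, and the other 6 libraries held between 18700000 and 38200000. A gene with 1 kb of exons thus needed an RPKM of 0.189 in shNFIB cells and 0.0787 in shMLL1 cells to be covered by 3 reads. Of 10 mesenchymal markers, 9 counted as expressed, and the summed RPKM of the list was 2769.7 in shNFIB and 2874 in shMLL1 cells. Passing the limit in a single library was enough to count. *Thy1* passed it in shMLL1 cells alone, with an RPKM of 0.0632 in shNFIB and 11.1 in shMLL1 cells. None of the 5 endothelial and none of the 5 skeletal muscle markers was expressed. Of 6 leukocyte markers, *Cd14* and *Cd68* were expressed, the summed RPKM was 7.90 in shNFIB and 9.74 in shMLL1 cells, and *Ptprc*, which encodes CD45, had 0 reads in both libraries.

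Most genes were at like levels in both lines. Of the 11079 genes, 10139 (91.5%) were within 2-fold, 357 (3.22%) were higher in shNFIB cells and 583 (5.26%) were higher in shMLL1 cells. The median log2 ratio was 0.01 and the quartiles were -0.29 and 0.27. More than 8-fold differences were found for 29 genes higher in shNFIB cells and 73 genes higher in shMLL1 cells. For 236 and 385 of the genes counted, the whole counting interval lay beyond 2-fold. Low levels were frequent among them, as 203 of the 357 and 286 of the 583 were below an RPKM of 5 in both libraries. At day 0 the balance ran the other way. Of the same genes, 545 (4.92%) were higher in shNFIB cells, 267 (2.41%) were higher in shMLL1 cells, and the median log2 ratio was 0.11.

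**Figure D1:**
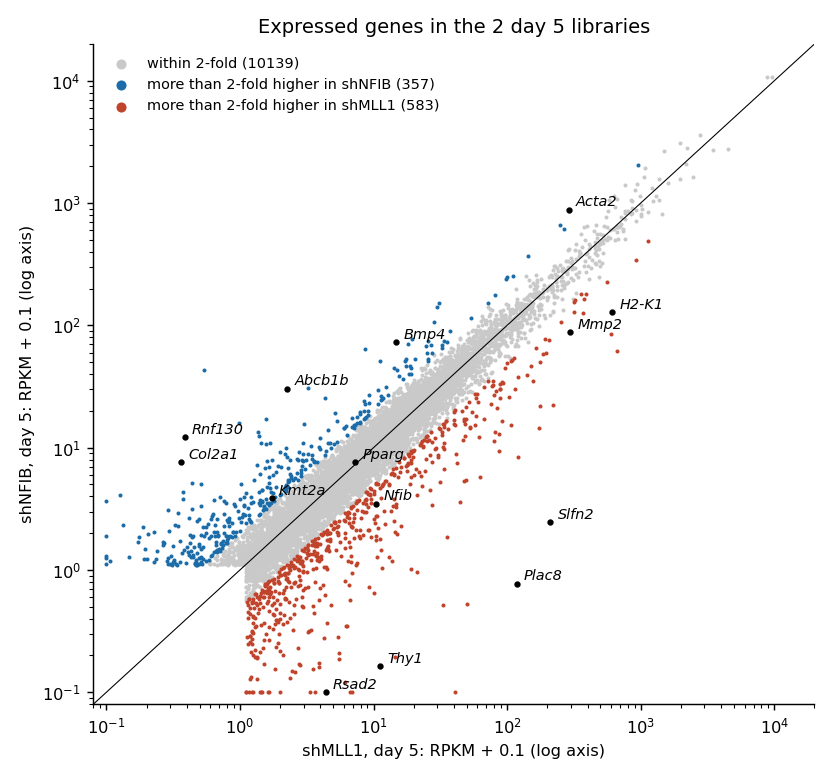
RPKM + 0.1 of the 11079 expressed genes at day 5, in shMLL1 cells (x axis, log scale) and shNFIB cells (y axis, log scale), with 1 point per gene and 1 library per line; the line marks equal levels. Grey points are the 10139 genes within 2-fold, blue the 357 higher in shNFIB cells and red the 583 higher in shMLL1 cells, and the red points reach farther from the line than the blue ones, as for *Plac8* and *Slfn2*.

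Each line had the lower level of its own target. *Nfib* (chromosome 4, GRCm38) had an RPKM of 3.38 in shNFIB cells against 10.3 in shMLL1 cells at day 5, with 17.02 in shControl and 22.98 in shKDM4D cells. The log2 ratio was -1.58 (95% interval -1.72 to -1.50), and it was -1.77 at day 0. *Kmt2a* (chromosome 9) had an RPKM of 3.74 in shNFIB and 1.63 in shMLL1 cells, with 5.27 in shControl and 4.89 in shKDM4D cells. Its log2 ratio was 1.15 (1.07 to 1.33), against 1.61 at day 0, so the separation of the lines in *Kmt2a* was smaller at day 5 than before differentiation.

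Most partners of both factors were within 2-fold of each other in the lines. Of the 4 nuclear factor I genes, *Nfic* and *Nfix* had log2 ratios of 0.10 and 0.06, and *Nfia* was at -0.64 (-0.81 to -0.51), with an RPKM of 2.65 in shNFIB and 4.19 in shMLL1 cells. Among 19 genes of the MLL and SET1 complexes, only *Kmt2a* was higher in shNFIB cells past 2-fold. *Pagr1a*, a small subunit of the MLL3 and MLL4 complexes, was the only one higher in shMLL1 cells, and with 6 reads in shNFIB and 94 in shMLL1 cells it was close to the limit of detection. The core subunit genes had log2 ratios of 0.19 for *Wdr5*, -0.13 for *Rbbp5* and -0.34 for *Ash2l*, and *Men1*, which encodes the MLL1 partner menin, was at 0.32. None of the 12 expressed genes of KDM4 demethylases and other H3K9 enzymes passed 2-fold. *Kdm4d* itself was not among them, with 7 reads in shNFIB and 15 in shMLL1 cells. Of 18 Polycomb genes, *Cbx7* at -1.55 (-2.17 to -1.31) and *Ezh1* at -1.24 (-1.35 to -1.15) were higher in shMLL1 cells. These were 11.1% of the list, beside 5.26% of all expressed genes. *Ezh1*, an H3K27 methyltransferase, had an RPKM of 8.31 in shNFIB, 19.7 in shMLL1 and 19.7 in shControl cells.

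Fat cell markers were low in both lines. The summed RPKM of 8 adipocyte markers was 12.1 in shNFIB cells against 12.5 in shMLL1 cells at day 5, beside 39.1 in shKDM4D and 831 in shControl cells, and 3 of the 8 were expressed. In shNFIB and shMLL1 cells most of the sum came from *Pparg* and *Cebpa*, and the other 6 markers summed to 0.936 in shNFIB, 2.86 in shMLL1, 25.5 in shKDM4D and 796 in shControl cells. In these bulk libraries, fewer cells of a type and less RNA per cell cannot be told apart. *Pparg*, the master regulator of fat cell formation, had an RPKM of 7.48 in shNFIB and 7.22 in shMLL1 cells (log2 ratio 0.05, -0.13 to 0.23). *Cebpa* had 3.66 and 2.42 (0.58, 0.30 to 0.90), and *Cebpb*, which acts before both, had 39.5 and 48.7 (-0.30, -0.41 to -0.19). The fatty acid binding protein gene *Fabp4* kept a trace that was higher in shMLL1 cells, with 27 reads in shNFIB and 299 in shMLL1 cells and a log2 ratio of -1.95 (-2.83 to -1.63).

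Among 16 expressed adipogenic transcription factors, 2 were higher in shMLL1 cells (12.5%, beside 5.26% of all expressed genes), none was higher in shNFIB cells and the median was 0.03. *Klf15*, a factor induced by glucocorticoids that acts with PPARγ in fat cells, had an RPKM of 0.407 in shNFIB and 2.84 in shMLL1 cells (-2.53, -3.58 to -2.12). None of 19 genes of fatty acid and triglyceride synthesis passed 2-fold (median 0.13). Of 20 genes of fatty acid oxidation 16 were below 0 and 1 was higher in shMLL1 cells, a share of 5% that is near that of all expressed genes. In 10 lipid droplet and lipolysis genes only *Mgll*, which encodes monoacylglycerol lipase, passed 2-fold, at 1.67 (1.49 to 2.04). *Slc27a1*, a fatty acid transport protein gene, was at -1.93 (-2.98 to -1.69) with RPKM values of 0.249 and 1.23, and together with *Fabp4* it made up the 2 of 9 genes of fatty acid uptake that were higher in shMLL1 cells. Of 7 adipokine and adipokine receptor genes, *Apln* (apelin, -1.51, -1.80 to -1.29) and *Rarres2* (chemerin, -1.43, -1.74 to -1.18) were higher in shMLL1 cells, all 7 were below 0 and the median was -0.61. Factors that hold back fat cell formation split, with *Foxc2* at 2.12 (1.90 to 2.51) and *Zfp521* at -1.90 (-2.05 to -1.80) among 13 expressed.

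Most genes of the interferon response were higher in shMLL1 cells, and their lists had the most negative medians of all lists with at least 10 expressed members. Type I interferons switch on their target genes through the interferon-stimulated response element, and these genes encode antiviral enzymes, GTPases that attack intracellular pathogens, and the antigen presentation machinery. The promoters of 4 of these genes are printed first, because genes of this kind make up the lower edge of the comparison. They were picked among list members whose window held a match to the core of the element. Genes with lower ratios that had no match or no window, or were left out of the choice, are not printed. *Oas1g*, with 2 matches and a lower ratio than *Oas3*, is also not printed. A match in each of the 4 printed promoters was thus fixed by the choice. Each runs from 250 bases before to 50 after the RefSeq start (GRCm38.p6), 5′ to 3′ on the strand of the gene. Capitals mark matches to the core of the element, GAAANNGAAA, searched on both strands, and a match on the opposite strand appears as the reverse complement. The windows are chr12:26456403-26456702 for *Rsad2*, chr5:120777610-120777909 for *Oas3*, chr11:48992197-48992496 for *Tgtp1* and chr17:36032652-36032951 for *H2-T23*, all on the minus strand.
Rsad2: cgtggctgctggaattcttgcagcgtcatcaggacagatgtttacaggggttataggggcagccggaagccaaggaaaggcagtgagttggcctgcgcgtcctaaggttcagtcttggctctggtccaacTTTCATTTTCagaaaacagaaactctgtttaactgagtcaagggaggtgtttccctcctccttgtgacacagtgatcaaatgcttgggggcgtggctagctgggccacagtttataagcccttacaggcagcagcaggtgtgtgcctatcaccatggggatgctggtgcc
Oas3: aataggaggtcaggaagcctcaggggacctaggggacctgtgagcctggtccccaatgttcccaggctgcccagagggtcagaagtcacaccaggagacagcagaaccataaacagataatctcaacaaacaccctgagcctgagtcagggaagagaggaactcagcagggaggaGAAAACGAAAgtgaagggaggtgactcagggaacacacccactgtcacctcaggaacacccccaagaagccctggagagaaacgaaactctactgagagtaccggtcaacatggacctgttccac
Tgtp1: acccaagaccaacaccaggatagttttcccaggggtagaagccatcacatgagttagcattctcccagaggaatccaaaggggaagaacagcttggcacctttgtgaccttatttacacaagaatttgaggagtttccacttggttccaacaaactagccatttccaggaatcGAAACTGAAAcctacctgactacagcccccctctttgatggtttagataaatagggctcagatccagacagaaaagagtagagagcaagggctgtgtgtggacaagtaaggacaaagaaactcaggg
H2-T23: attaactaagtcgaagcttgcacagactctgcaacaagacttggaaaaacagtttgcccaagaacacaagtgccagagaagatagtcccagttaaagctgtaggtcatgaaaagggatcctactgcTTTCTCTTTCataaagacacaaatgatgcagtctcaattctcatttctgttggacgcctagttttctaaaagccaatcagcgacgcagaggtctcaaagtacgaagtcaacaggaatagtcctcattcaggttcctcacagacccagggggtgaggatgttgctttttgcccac
The matches start at -120, -75, -77 and -124 from the start site in this order.

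Of the genes with a promoter window, the core was found in 55 of 385 genes higher in shMLL1 cells (14.3%) and in 10 of 238 genes higher in shNFIB cells (4.20%). It was found in 331 of 8592 expressed genes (3.85%), and 3.44% of all 32851 windows of this length hold it. By list, 14 of 26 antiviral genes, 9 of 9 interferon-inducible GTPases, 4 of 14 genes of MHC class I and immunoproteasome and 1 of 11 complement and acute phase genes with a window had a match. A match is a description of the sequence, not a site or a cause, and genes without a match may hold the element in another form or place.

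Of 40 expressed type I interferon-induced antiviral genes, 23 were higher in shMLL1 cells and 1 was higher in shNFIB cells. The median log2 ratio was -1.21, beside 0.01 over all genes. At day 0 the median of the same genes was 0.04. The summed RPKM at day 5 was 2213 in shNFIB and 4629 in shMLL1 cells, whereas shControl and shKDM4D cells had 481 and 407, and at day 0 all 4 lines lay between 144 and 247. Thus both lines were far above the control at day 5, and 38 of the 40 genes were highest in shMLL1 cells.

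*Rsad2*, which encodes the antiviral enzyme viperin, had 0 reads in shNFIB cells and 710 reads in shMLL1 cells, and 0 reads in shControl and shKDM4D cells. Its log2 ratio was at most -6.62 against a floor of 3 reads. The neighbouring gene *Cmpk2*, a nucleotide kinase gene, had 2 and 360 reads (-4.18, -9.28 to -4.36). The oligoadenylate synthetases *Oas1g* and *Oas3*, which sense double-stranded RNA, had RPKM values of 0.917 and 0.179 in shNFIB cells against 19.1 and 4.13 in shMLL1 cells, with log2 ratios of -4.24 (-4.91 to -3.89) and -3.93 (-5.25 to -3.90). *Oas1g* shares near-identical sequence with *Oas1a*, which was at -3.45, so the split between these copies is uncertain.

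The genes best known as interferon reporters were high in both lines and higher in shMLL1 cells. *Isg15*, a ubiquitin-like modifier, had an RPKM of 76.6 in shNFIB and 192 in shMLL1 cells (-1.33, -1.43 to -1.23), with 3.70 in shControl and 1.90 in shKDM4D cells. *Irf7*, the transcription factor that amplifies the response, had 13.3 and 80.6 (-2.59, -2.71 to -2.50), with 1.89 and 1.21. *Usp18*, which removes ISG15, had 17.01 and 66.7 (-1.96, -2.08 to -1.86). Not every member differed to this extent. *Ifit1*, which binds viral RNA, had 273 and 386 (-0.50, -0.53 to -0.47). The gene past 2-fold in the other direction was *Ifi27*, with 46.1 in shNFIB and 17.3 in shMLL1 cells (1.41, 1.29 to 1.54). *Ifi27* was higher still in shControl cells at 69.7.

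All 13 interferon-inducible GTPases were below 0 and 10 of them were higher in shMLL1 cells past 2-fold, with a median of -1.54. These large GTPases gather on the membranes around intracellular pathogens. Their summed RPKM was 257 in shNFIB and 849 in shMLL1 cells, beside 78.6 in shControl and 44.5 in shKDM4D cells, and each of the 13 was highest in shMLL1 cells. *Gbp9* had an RPKM of 3.47 in shNFIB and 44.3 in shMLL1 cells (-3.64, -3.85 to -3.50), *Iigp1* had 14.4 and 175 (-3.59, -3.68 to -3.52), and *Gbp4* had 0.472 and 6.60 (-3.55, -4.22 to -3.42). *Gbp2* was among the 3 within 2-fold, with 42.8 and 65.1 (-0.61, -0.68 to -0.53). At day 0 the median of the list was 0.63, with 11 of 13 above 0. *Tgtp1* showed the change of sign most clearly. It had an RPKM of 2.94 in shNFIB cells against 0.457 in shMLL1 cells at day 0 and of 9.34 and 86.6 at day 5 (2.45 and -3.20). Its near-identical neighbour *Tgtp2* went from 3.40 to -1.80, and reads may be shared between them.

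Antigen presentation followed. MHC class I molecules with β2-microglobulin present peptides that the immunoproteasome cuts and the TAP transporter delivers. Of 16 expressed genes, 12 were higher in shMLL1 cells and none in shNFIB cells (median -1.66, day 0 median 0.28). *Psmb9* and *Psmb8*, catalytic subunits of the immunoproteasome, had RPKM values of 1.36 and 2.65 in shNFIB cells against 11.2 and 10.5 in shMLL1 cells (-2.95, -3.39 to -2.72, and -1.94, -2.24 to -1.73). *H2-K1*, a classical class I gene (chromosome 17 from 33996017 to 34000347), had 128 and 609 (-2.25, -2.29 to -2.21), with 47.6 in shControl and 31.6 in shKDM4D cells. *H2-T23* had 46.1 and 151 (-1.71, -1.78 to -1.65). *B2m*, the common light chain, was within 2-fold at 2783 and 4475 (-0.69, -0.70 to -0.67). Class I genes are a polymorphic family, and reads that fit several members make their single values uncertain.

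**Figure D2:**
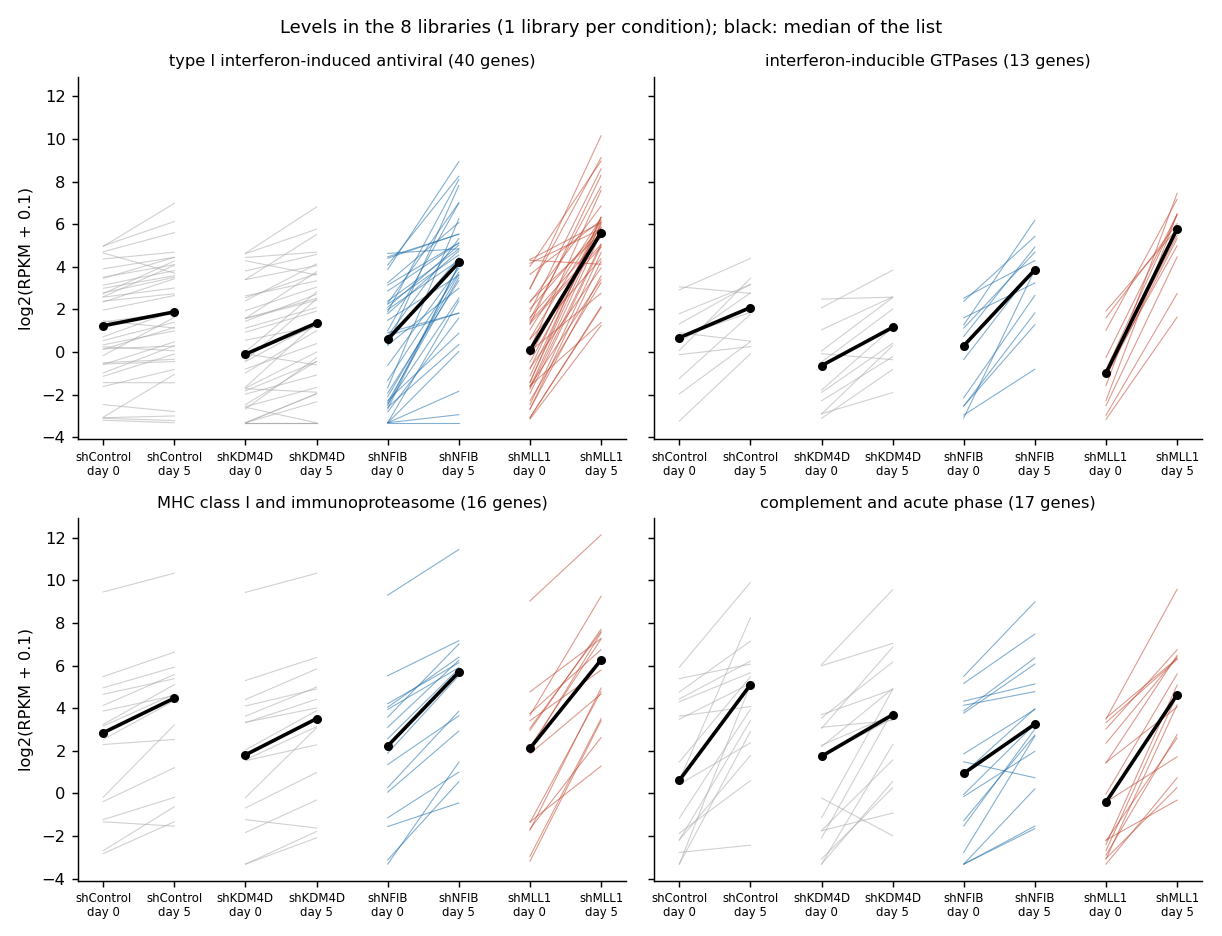
log2(RPKM + 0.1) of each expressed gene of 4 lists in the 8 libraries, day 0 and day 5 of each line joined by a line, with the median of the list in black; 1 library per condition. In the antiviral, GTPase and MHC class I panels the day 5 medians of shNFIB and shMLL1 cells stand above those of shControl and shKDM4D cells and shMLL1 cells are the highest, whereas in complement and acute phase genes shControl cells have the highest median.

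Complement and acute phase genes were split and turned between the days. Of 17 expressed, 9 were higher in shMLL1 cells and 3 in shNFIB cells at day 5 (median -1.15), while at day 0 the counts were 2 and 11 (median 1.16). Their median RPKM at day 0 was low, at 1.82 in shNFIB and 0.653 in shMLL1 cells. *Serping1*, the C1 inhibitor gene, had 8 reads in shNFIB and 282 in shMLL1 cells (-3.37, -5.10 to -2.87). *Cp* (ceruloplasmin) had RPKM values of 15.2 and 106 (-2.80, -2.87 to -2.75). *Orm1* and *Serpina3n*, acute phase genes of multigene families whose reads can be shared, were at -2.55 (-3.59 to -1.85) and -2.35 (-2.57 to -2.16). The genes on the other side encode a serum amyloid, a pentraxin and a cytokine, with *Saa3* at 1.70 (1.43 to 2.15), *Ptx3* at 1.14 (1.10 to 1.19) and *Il6* at 1.05 (0.62 to 1.68). *C3*, the central complement component, was abundant in both lines at 507 and 764 (-0.59, -0.61 to -0.58).

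The 4 immune lists together held 86 of the 11079 expressed genes. Of the 86, 54 were higher in shMLL1 cells and 4 in shNFIB cells, beside 5.26% and 3.22% of all expressed genes. The 54 made up 9.26% of the 583 genes higher in shMLL1 cells. The other 10993 genes still held 529 genes higher in shMLL1 cells and 353 higher in shNFIB cells. Among the leukocyte markers given above, *Cd14* had RPKM values of 6.38 and 8.24 and *Cd68* of 0.502 and 1.40, and *Adgre1* had 0 and 1 read.

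Clustered histone genes were the largest group outside the immune lists that was higher in shMLL1 cells. Of 49 expressed, 27 were higher there and 1 in shNFIB cells, the median was -1.03 and 46 were highest in shMLL1 cells among the 4 lines. Many are at low RPKM, and with a pseudocount of 1 the count of 27 became 16 and the median -0.82. At day 0 the median was -0.06. Their reads made up 0.0607% of the shNFIB library and 0.108% of the shMLL1 library. These genes serve DNA replication and their transcripts mostly lack a poly(A) tail. The genes of the cell cycle did not move with them, as none of 30 mitosis genes (median -0.15) and none of 32 DNA replication genes (median -0.07) passed 2-fold. Single histone genes are short and near-identical. *Hist1h2ao* had 27 reads in shNFIB and 0 in shMLL1 cells, and *Hist1h2ap* had 1 and 48, so their assignment to one copy is uncertain. The linker histone gene *Hist1h1c*, with a distinct sequence and many reads, had RPKM values of 103 and 150 (-0.55, -0.61 to -0.48).

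Of 13 expressed genes that respond to glucocorticoids, 6 were higher in shMLL1 cells and 7 were within 2-fold. Dexamethasone, a synthetic glucocorticoid, is part of the hormone mixture that all lines received until day 2, so it was no longer being added at day 5. The median was -0.999 at day 5 and 0.04 at day 0. *Fkbp5*, an immunophilin gene and a common reporter of the glucocorticoid receptor, had an RPKM of 4.03 in shNFIB and 20.9 in shMLL1 cells (-2.35, -2.50 to -2.25), with 17.1 in shControl and 5.48 in shKDM4D cells. *Hif3a* was at -2.51 (-4.27 to -2.48) from 12 and 285 reads. *Pdk4*, a kinase that spares glucose, had 1.20 and 5.60 (-2.13, -2.60 to -1.86), and *Errfi1*, an inhibitor of the EGF receptor, had 8.30 and 30.1 (-1.85, -2.00 to -1.72). The 4 genes above 0 were *Dusp1* (0.29), *Ddit4* (0.21), *Klf9* (0.14) and the receptor gene *Nr3c1* (0.01). Only 4 of the 13 were highest in shMLL1 cells, and 7 were highest in shControl cells, while 8 were lowest in shNFIB cells.

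Immediate early genes, which are switched on within minutes by growth factors and stress, also leaned to shMLL1 cells. Of 16 expressed, 5 were higher there and none in shNFIB cells (median -0.35). *Egr1* had an RPKM of 14.3 in shNFIB and 52.4 in shMLL1 cells (-1.86, -1.97 to -1.78), with 35.8 in shControl and 30.4 in shKDM4D cells. *Egr2* was at -1.74 (-2.25 to -1.44), *Fos* at -1.30 (-1.91 to -0.89), *Egr3* at -1.16 (-1.64 to -0.87) and *Nr4a1* at -1.03 (-1.34 to -0.79). Here shNFIB cells were the lowest line for 8 of the 16 genes.

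Cholesterol synthesis ran the other way. SREBP2 switches on these genes through the sterol regulatory element when cell cholesterol is low. Of 24 expressed genes of synthesis and uptake, 22 were above 0, 3 were higher in shNFIB cells past 2-fold and none in shMLL1 cells, with a median of 0.54. *Hmgcs1*, which makes HMG-CoA, had an RPKM of 24.1 in shNFIB and 8.36 in shMLL1 cells (1.52, 1.43 to 1.63), and *Sc5d*, an enzyme of the last steps, had 7.48 and 3.46 (1.09, 0.95 to 1.28). At day 0 the median was -0.58, and 5 genes were higher in shMLL1 cells. *Idi1* went from -1.15 at day 0 to 0.87 at day 5, with RPKM values of 22.9 and 50.9 before and 14.97 and 8.13 after. Both lines thus had less *Idi1* at day 5 than at day 0, and shMLL1 cells went from the higher to the lower of the pair. In shControl cells *Idi1* went from 43.1 to 11.9. Among the 4 lines at day 5, 17 of the 24 genes were highest in shNFIB, 6 in shControl and 1 in shMLL1 cells. Only 4 were lowest in shMLL1 cells. The *Hmgcs1* promoter is printed (chr13:119690101-119690400, plus strand, RefSeq, GRCm38.p6, 250 bases before to 50 after the start), as it is the 1 promoter of the 17 with a window that held the sterol element core TCACNCCAC on either strand, shown in capitals.
Hmgcs1: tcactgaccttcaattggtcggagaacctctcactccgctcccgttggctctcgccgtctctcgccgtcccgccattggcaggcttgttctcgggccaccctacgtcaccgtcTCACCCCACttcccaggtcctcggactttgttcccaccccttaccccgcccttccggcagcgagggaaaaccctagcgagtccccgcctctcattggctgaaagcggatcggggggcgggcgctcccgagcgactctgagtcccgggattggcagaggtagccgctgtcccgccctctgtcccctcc
The core starts at -137, and it was found in 1.30% of the expressed genes.

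All 13 protein-coding genes of the mitochondrial genome were above 0 at day 5, with a median of 0.70, and each was lowest in shMLL1 cells among the 4 lines. *mt-Cytb*, a subunit of complex III, had an RPKM of 2057 in shNFIB and 960.4 in shMLL1 cells (1.10, 1.08 to 1.12), and it was the only one past 2-fold. *mt-Co1*, of complex IV, had 2812 and 2241 (0.33, 0.31 to 0.34). Mitochondrial reads made up 2.20% of the shNFIB library and 1.44% of the shMLL1 library. The 75 nuclear genes of the respiratory chain did not follow, with no gene past 2-fold and a median of 0.00.

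Glycolysis and hypoxia genes lay on the side of shMLL1 cells without passing 2-fold. None of 23 was above 0 and the median was -0.45, against -0.48 at day 0. *Eno1* (enolase) had RPKM values of 132 in shNFIB and 262 in shMLL1 cells (-0.98, -1.01 to -0.95). *Gapdh*, a member of this pathway and the reference gene of many RT-qPCR assays, had 235 and 311 (-0.40, -0.43 to -0.38), so that values divided by *Gapdh* would lie 0.40 higher on the log2 scale.

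The growth factor pathways had more genes higher in shNFIB than in shMLL1 cells, and most of their genes were within 2-fold. Of 28 expressed TGF-β and BMP pathway genes, 9 were higher in shNFIB cells and 2 in shMLL1 cells (median 0.60), and at day 0 the median was also 0.60, with 12 and 0 genes past 2-fold. Among the ligands, *Bmp4* (chromosome 14 from 46383520 to 46390669), which commits mesenchymal cells to the fat lineage, had an RPKM of 72.7 in shNFIB and 14.7 in shMLL1 cells (2.29, 2.20 to 2.40), with 22.99 in shControl and 27.1 in shKDM4D cells. *Tgfb2* had 19.1 and 5.09 (1.89, 1.80 to 2.02). *Smad6*, an inhibitory SMAD gene that the pathway induces, was on the same side at 2.22 (2.05 to 2.52). The co-receptor gene *Tgfbr3* and the decoy receptor gene *Bambi* lay on the other side, at -1.41 (-1.57 to -1.29) and -1.27 (-1.98 to -0.95).

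In the Wnt pathway 4 of 16 expressed genes were higher in shNFIB cells and 2 in shMLL1 cells (median 0.45). The secreted antagonist *Sfrp1* stood out with an RPKM of 17.1 in shNFIB and 1.46 in shMLL1 cells (3.47, 3.35 to 3.76), with 5.12 in shControl and 2.70 in shKDM4D cells. It was at 3.17 at day 0. In the insulin and IGF list, 3 of 13 were higher in shNFIB cells and 1 was higher in shMLL1 cells. The ligand gene *Igf1* (chromosome 10) had an RPKM of 30.9 in shNFIB and 3.14 in shMLL1 cells (3.26, 3.21 to 3.39), with 8.38 in shControl and 12.5 in shKDM4D cells. *Igf2* was at 1.95 (1.89 to 3.001) from 92 and 41 reads. The binding protein gene *Igfbp3* was the reverse, with 1 read in shNFIB and 718 in shMLL1 cells (-5.67, -13.53 to -5.74), 3.77 RPKM in shControl and 17.6 in shKDM4D cells. Of 10 imprinted genes, 4 were higher in shNFIB cells, among them *Ndn* (necdin) at 2.78 (2.64 to 3.10), and 1 was higher in shMLL1 cells, namely *H19*, a noncoding RNA next to *Igf2*, with 4 and 189 reads (-3.38, -6.19 to -2.92).

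The extracellular matrix differed gene by gene rather than as a group. Of 25 expressed collagens, 3 were higher in shNFIB cells and 6 in shMLL1 cells, and the median of 0.11 turned to -0.08 under quantile normalization. *Col1a1*, the main fibrillar collagen, had an RPKM of 859 and 569 (0.59, 0.58 to 0.61). The cartilage collagen gene *Col2a1* had 7.48 in shNFIB and 0.264 in shMLL1 cells (4.38, 4.52 to 5.15), and *Col8a1* had 15.5 and 2.93 (2.36, 2.29 to 2.52). *Col8a1* was at 0.502 in shControl and 0.124 in shKDM4D cells at day 5, so both lines were above them. *Col18a1* (-2.37, -2.73 to -2.21) and *Col23a1* (-2.09, -2.39 to -1.92) were higher in shMLL1 cells. Small leucine-rich proteoglycans, which space collagen fibrils, were split as 3 and 2 of 12, with *Fmod* (2.32, 2.13 to 3.47), *Epyc* (2.20, 1.99 to 2.56) and *Omd* (1.66, 1.56 to 1.77) on one side and *Podn* (-2.01, -2.98 to -1.69) and *Dcn* (-1.41, -1.47 to -1.36) on the other. *Dcn* (decorin) had an RPKM of 34.5 in shNFIB, 92.2 in shMLL1, 31.8 in shControl and 3.03 in shKDM4D cells.

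Of 19 matrix proteases and inhibitors, *Mmp3* was higher in shNFIB cells (5.26%) and 2 genes in shMLL1 cells (10.5%). Over all expressed genes these shares were 3.22% and 5.26%, so the list as a whole differed from them by few genes. *Mmp3* (stromelysin) had RPKM values of 13.4 and 1.27 (3.30, 3.06 to 3.75), and the gelatinase gene *Mmp2* had 87.6 and 298 (-1.77, -1.81 to -1.72). *Adamts9* was at -2.80 (-3.39 to -2.78). Among 21 integrins and laminins 5 were higher in shNFIB cells and 2 in shMLL1 cells.

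Chemokines, secreted proteins that direct the movement of leukocytes, split in both directions. Of 14 expressed, 5 were higher in shNFIB cells and 4 in shMLL1 cells. *Cxcl5* had an RPKM of 154 in shNFIB and 30.7 in shMLL1 cells (2.32, 2.25 to 2.40) and *Cxcl1* had 140.2 and 29.6 (2.24, 2.17 to 2.32), both ligands that draw neutrophils. *Ccl2*, which draws monocytes, had 249 and 99.4 (1.33, 1.27 to 1.39), with 75.6 in shControl and 70.9 in shKDM4D cells. *Ccl8* (1.82, 1.19 to 2.60) and the stromal ligand *Cxcl12* (1.20, 1.17 to 1.22) were on the same side. *Ccl5* had 5.39 in shNFIB and 49.0 in shMLL1 cells (-3.16, -3.52 to -2.87), and *Cxcl10*, a classical interferon-induced chemokine, had 2.13 and 6.76 (-1.62, -2.03 to -1.32). *Cxcl16* (-2.33, -4.30 to -1.88) and *Ccl6* (-1.30, -1.98 to -0.83) were the other 2.

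Smooth muscle contractile genes were higher in shNFIB cells in 4 of 10 cases and in shMLL1 cells in none (median 0.36). *Acta2*, which encodes smooth muscle actin, had an RPKM of 878 in shNFIB and 289 in shMLL1 cells (1.60, 1.58 to 1.63), with 478 in shControl and 673 in shKDM4D cells. *Myl9*, a myosin light chain gene, was at 25.2 and 4.27, and *Actg2* at 2.16 (1.72 to 3.02). Mesenchymal surface markers were divided, with 4 of 11 higher in shMLL1 cells, none higher in shNFIB cells past 2-fold and a median of -0.23. The 5 above 0 were *Alcam* (0.83), *Itgb1* (0.24), *Pdgfrb* (0.18), *Pdgfra* (0.16) and *Cd44* (0.04). *Ly6a*, which encodes SCA-1, had 340.2 in shNFIB and 927 in shMLL1 cells (-1.45, -1.48 to -1.41), with 136 in shControl and 109 in shKDM4D cells. *Ly6c1* was at -1.66 (-1.76 to -1.57) and *Cd55*, a complement regulator, at -1.37 (-1.77 to -1.13). *Thy1*, which encodes CD90, had 3 reads in shNFIB cells against 1267 in shMLL1 cells (-6.10, -9.73 to -5.90) and was at -6.66 at day 0. It had an RPKM of 22.6 in shControl and 0.139 in shKDM4D cells, so the lines fell into a pair with this marker and a pair almost without it at both days.

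Bone and cartilage genes were higher in shMLL1 cells in 4 of 12 cases and in shNFIB cells past 2-fold in 0. As a list they did not lean to one line, with 6 above 0, 6 below 0, a median of -0.07 and a highest value of 0.82. The 4 past 2-fold were as follows. *Spp1* (osteopontin) had an RPKM of 84.9 in shNFIB, 596 in shMLL1, 221 in shControl and 159 in shKDM4D cells (-2.81, -2.87 to -2.75). *Matn2* had 21.1 and 83.3 (-1.97, -2.05 to -1.91), *Mgp*, an inhibitor of calcification, had 125 and 368 (-1.55, -1.62 to -1.49), and *Phex* was at -2.28 (-3.23 to -2.09).

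Ranking all genes regardless of list gave the most separated pairs of values. The ranking took the 6834 protein coding genes with an RPKM of at least 5 in 1 of the libraries and at least 100 reads over both. The lowest was *Plac8* (chromosome 5 from 100553725 to 100572245), which encodes a small cysteine-rich protein, with an RPKM of 0.674 in shNFIB and 118 in shMLL1 cells (-7.25, -8.23 to -6.77). It had 2.24 in shControl and 0.436 in shKDM4D cells, and 0.362 in shMLL1 cells at day 0. *Slfn2* (chromosome 11 from 83065112 to 83070678), a Schlafen gene known from lymphocyte quiescence, had 2.35 and 211 (-6.43, -6.87 to -6.13), with 5.81 in shControl and 0.751 in shKDM4D cells. These high levels were thus found in the shMLL1 library of day 5 and in none of the others.

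Several of the remaining 13 lowest genes belong to the interferon response or to near-identical families. *Ifi206* (-6.02), *Gbp8* (-4.71), *Ifi44l* (-4.26), *Oas1g* (-4.24) and the nuclear body gene *Sp140* (-3.68) are of this kind. *Thy1* and *Igfbp3* were described above. *Agt*, which encodes angiotensinogen, had an RPKM of 0.868 in shNFIB, 20.9 in shMLL1, 96.4 in shControl and 7.41 in shKDM4D cells (-4.44, -5.21 to -4.03). *Gas6*, the ligand of the TAM receptors that take part in clearing dying cells, had 8.27, 121, 92.8 and 44.0 in the same order (-3.85, -4.03 to -3.71), so there it was shNFIB cells that stood apart. *Tcim*, a regulator of transcription and immune response, was at -4.25, the carboxylesterase gene *Ces2g* at -4.87, the orosomucoid gene *Orm3* at -4.19 and the cytochrome gene *Cyp2j12* at -3.96. Of the 15 lowest genes, 10 were highest in shMLL1 cells and 6 were lowest in shNFIB cells among the 4 lines at day 5.

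The highest was *Rnf130* (chromosome 11 from 50025346 to 50104758), a RING ubiquitin ligase gene, with an RPKM of 12.03 in shNFIB and 0.286 in shMLL1 cells (4.97, 4.69 to 6.19), 1.30 in shControl and 0.594 in shKDM4D cells. It was at 8.77 in shNFIB cells against 0.118 in shMLL1 cells at day 0, so the difference was there before differentiation. *Abcb1b* and *Abcb1a*, which encode P-glycoprotein drug efflux pumps and can share reads, had RPKM values of 30.2 and 5.07 in shNFIB and 2.15 and 0.335 in shMLL1 cells (3.75, 3.69 to 3.93, and 3.57, 3.55 to 4.30). At day 0 *Abcb1b* was at 0.37. *Ang2*, of the angiogenin ribonuclease family, was at 4.03 (3.62 to 4.77), the homeobox gene *Six2* at 3.15 (2.93 to 3.57) and *Papss2*, which makes the sulfate donor of matrix synthesis, at 2.93 (2.78 to 3.26).

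*Cd74*, the invariant chain of MHC class II, had an RPKM of 63.5 in shNFIB, 8.59 in shMLL1, 12.03 in shControl and 8.20 in shKDM4D cells (2.87, 2.75 to 3.03), against the direction of the class I genes. *Ch25h*, which makes 25-hydroxycholesterol, had 10.9 and 1.57 (2.71, 2.42 to 3.17), and *Ism1* was at 2.44 (2.24 to 2.82). *Col2a1*, *Sfrp1*, *Mmp3*, *Igf1*, *Ndn* and *Myl9* complete the 15. Of these 15 genes, 14 were highest in shNFIB cells and 12 were lowest in shMLL1 cells among the 4 lines. The same direction past 2-fold was already present at day 0 for 14 of the 15 highest genes and for 7 of the 15 lowest. Some of these day 0 ratios rest on few reads. In shNFIB and shMLL1 cells *Ism1* had 10 and 0 reads at day 0, *Mmp3* 11 and 2, and *Plac8* 2 and 22. The day 0 interval of *Plac8* ran from -5.56 to -0.40, so it did not lie wholly beyond 2-fold.

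**Figure D3:**
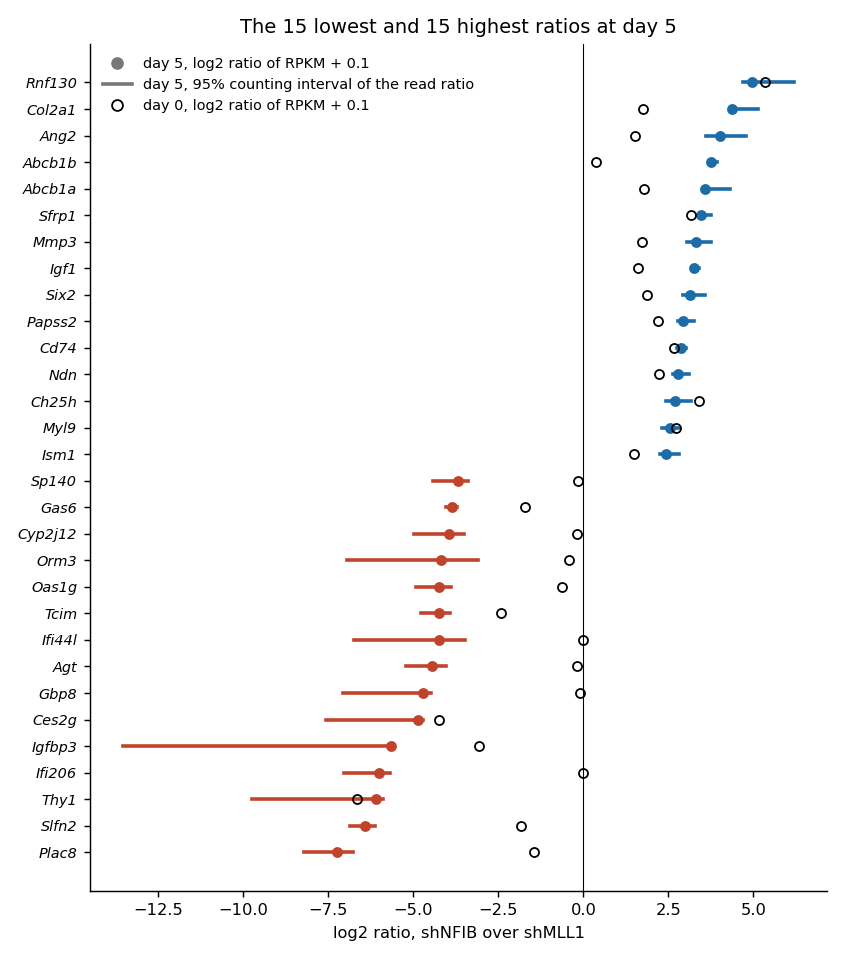
log2 ratio of shNFIB to shMLL1 cells (x axis) for the 15 highest (blue) and 15 lowest (red) ranked genes; filled points are day 5, open circles day 0, and bars the 95% counting interval of the read ratio at day 5, with 1 library per condition. The open circles of the blue genes lie on the same side as the filled points, whereas several of the red genes, such as *Ifi206* and *Agt*, lie near 0 at day 0.

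Many housekeeping and metabolic lists held no gene past 2-fold in either direction. These were the 77 cytosolic ribosomal proteins (median -0.06), 27 genes of ribosome biogenesis, 18 of the TCA cycle, 20 aminoacyl-tRNA synthetases, 12 enzymes of serine, asparagine and one-carbon metabolism, 8 amino acid transporters and 11 genes of the ATF4 and CHOP stress response. Among smaller lists, 1 of 15 YAP and TAZ targets, 1 of 19 NRF2 targets and 1 of 16 circadian clock genes were higher in shMLL1 cells and none in shNFIB cells, and 10 clustered protocadherins held 1 gene higher in shNFIB and 2 higher in shMLL1 cells. In the 20 ER chaperones 1 gene passed, in the 32 lysosomal genes 1, and in the 19 CDK inhibitors and p53 targets only *Fas*, which encodes the death receptor, with an RPKM of 76.8 in shNFIB and 19.2 in shMLL1 cells. Against this background the antiviral, GTPase, MHC class I, complement, histone and glucocorticoid lists were the ones with a median of -0.999 or lower.

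**Figure D4:**
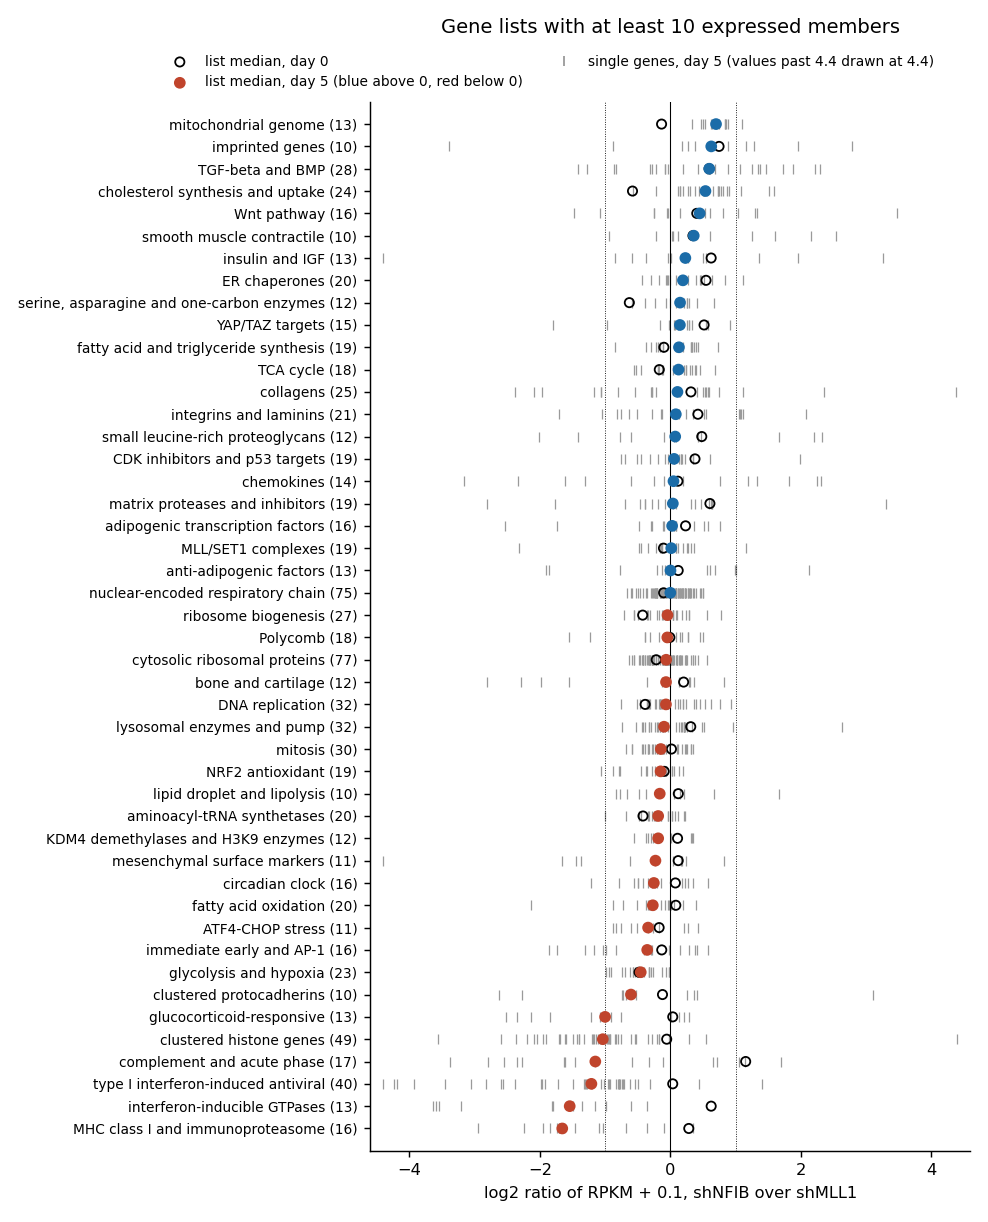
log2 ratio of shNFIB to shMLL1 cells (x axis) for each list with at least 10 expressed members, whose number is in brackets; ticks are single genes at day 5, filled points list medians at day 5 and open circles list medians at day 0, and dotted lines mark 2-fold. The 6 lists at the bottom have day 5 medians of -0.999 or lower and lie between -0.06 and 1.16 at day 0.

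The day 0 libraries of both lines are separate libraries of the same stable lines. Of the 357 genes higher in shNFIB cells at day 5, 200 (56.0%) were higher there at day 0 too, 6 were higher in shMLL1 cells and 151 were within 2-fold. Of the 583 genes higher in shMLL1 cells at day 5, 151 (25.9%) were higher there at day 0 too, 33 (5.66%) were higher in shNFIB cells and 399 were within 2-fold. Over all 11079 genes, 4.92% were higher in shNFIB cells and 2.41% in shMLL1 cells at day 0, so both shares lay far above their background, and the difference between the directions was not tested. Across the 11079 genes the log2 ratios of both days had a Pearson correlation of 0.513 and a Spearman correlation of 0.495. This is a description across genes, which are not independent replicates.

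**Figure D5:**
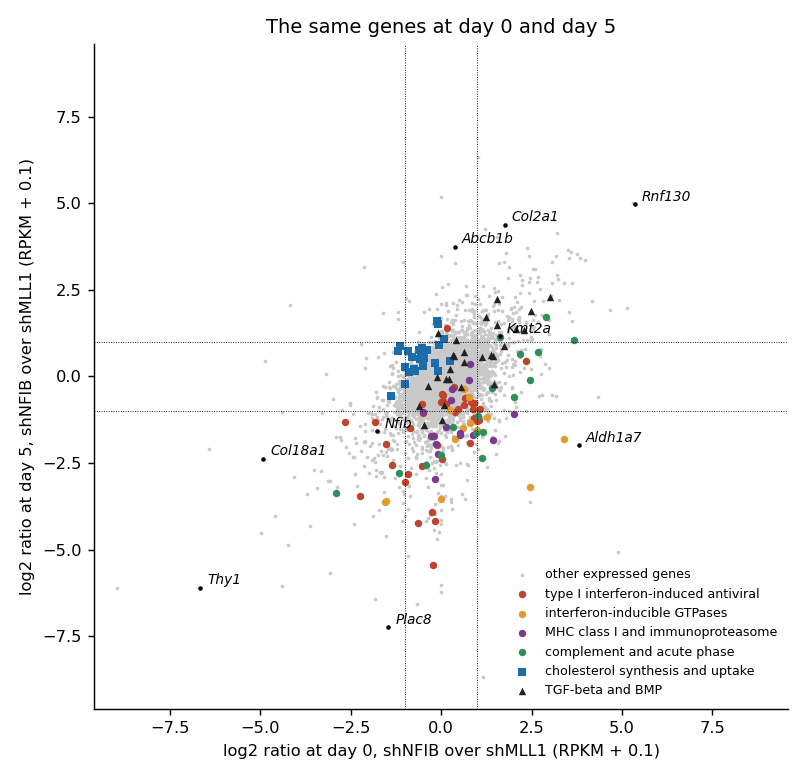
log2 ratio of shNFIB to shMLL1 cells at day 0 (x axis) and day 5 (y axis) for the 11079 expressed genes, 1 point per gene and 1 library per condition, with dotted lines at 2-fold. Most interferon, GTPase and MHC class I genes lie below 0 on the y axis, with list medians of 0.04, 0.63 and 0.28 on the x axis, 22 of 24 cholesterol genes lie above 0 on the y axis and 2 on the x axis, and *Thy1* and *Rnf130* lie far out in the same direction at both days.

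The genes with the largest shift between the days, among 6713 with an RPKM of at least 1 in 1 of the day 0 libraries, were led on the side of shMLL1 cells by a pair of aldehyde dehydrogenases and a pair of GTPases. *Aldh1a7* had an RPKM of 12.6 in shNFIB cells against 0.811 in shMLL1 cells at day 0 and of 25.9 and 103 at day 5, a shift of -5.80 on the log2 scale. Its paralogue *Aldh1a1*, which makes retinoic acid, went from 3.94 and 0.101 to 20.3 and 30.6 (-4.92). *Tgtp1* (-5.65) and *Tgtp2* (-5.19) were described above. *Tnfrsf21*, a death receptor gene, shifted by -3.89 on this scale, *Clec3b* (tetranectin) by -3.73, *Phf11b* by -3.49 and *Cdo1*, a cysteine dioxygenase gene, by -3.47.

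In the other direction were *Abcb1b* (3.38), *Col2a1* (2.63), *Col18a1* (2.56), *Ang2* (2.49), the cholesterol synthesis gene *Idi1* (2.02) and *Foxc2* (2.00). The histone gene *Hist1h2ah* also ranked here, but with 0 reads in shNFIB cells at day 0 its shift is set by the added 0.1 and is not given. It had 132 reads in shMLL1 cells at day 0, and at day 5 it had 15 in shNFIB cells against 158 in shMLL1 cells, and it is 1 of many near-identical copies. *Abcb1b* went from an RPKM of 8.70 at day 0 to 30.2 at day 5 in shNFIB cells and from 6.70 to 2.15 in shMLL1 cells, so both lines contributed to its shift. *Foxc2* was about level at day 0, at 6.19 and 5.69, and at day 5 it was at 6.02 and 1.31.

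The median ratio moved little with gene length and level, and the number of genes past 2-fold was higher among short and low genes. Over 4 groups of equal size by exon length, the median log2 ratio went from -0.04 for the shortest to 0.03 for the longest genes, while the genes higher in shNFIB and in shMLL1 cells went from 156 and 252 to 57 and 90. Of 4 such groups by mean RPKM, the lowest held 191 of the genes higher in shNFIB cells and 277 of those higher in shMLL1 cells, and the highest held 52 and 123. Reads of ribosomal RNA-like genes made up 3.73% of the shNFIB library and 3.17% of the shMLL1 library.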

How the data were processed

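Total RNA of the 8 samples had been made into stranded libraries with the SMARTer kit and sequenced on a HiSeq instrument, and the authors mapped the reads to GRCm38 (mm10 in the processing notes of the submitters) with CLC Genomics Workbench. The deposited files hold 1 RPKM value per gene symbol and library, which the authors computed from reads, exon length and mapped reads. The methods name a quantile normalization, which is not visible in the deposited RPKM values, and do not state the strand setting of the counting, so overlapping and antisense genes and near-identical copies are uncertain.

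RPKM values were multiplied by the exon length in GENCODE M21 (40851 of 41325 symbols found). Between 96.2% and 96.6% of the values from 1 to 1000 reads then lay within 0.02 of a whole read in each library, and 11017 of the 11079 expressed genes had reads. Depth ranged from 15800000 to 38200000 mapped reads. Intervals are exact Clopper-Pearson 95% intervals, conditional on the sum of both reads, and the floor for a count of 0 was 3 reads. The script for the ratios, intervals and counts was tested on simulated data. Samples were grouped by the line and day in the labels. No test was run, since there is 1 library per condition.

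The genes compared and the 54 gene lists were chosen with earlier results of these data known, so lists are described by counts and medians only. Named genes were the targets, MLL1 complex genes and fat cell genes measured in the study, the 15 highest and 15 lowest ranked genes (symbols of the Gm and Rik kind left out), up to 4 at each end of a list with members needed to show what did not differ, and the 8 largest shifts between the days in each direction. A few genes that this rule picks are not reported here. Promoters came from the RefSeq table of GRCm38.p6. Alternatives were a pseudocount of 1 or 0.01, median-of-ratios scaling, quantile normalization, other filters on RPKM, protein coding genes only, division by *Gapdh*, and the difference of the changes from day 0. Python 3.11.15, numpy 2.4.6, pandas 2.3.3, scipy 1.17.1 and matplotlib 3.10.9 were used.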

Additional observations from a re-analysis of the deposited data

Results flagged for a closer look

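A set of 16 genes named here were more than 2-fold apart in opposite directions at day 0 and at day 5, higher in shNFIB cells before differentiation and higher in shMLL1 cells at day 5. They were taken from the listed, ranked and study genes with an RPKM of at least 5 in at least 1 day 5 library. Over all expressed genes, 33 of the 583 genes higher in shMLL1 cells at day 5 (5.66%) turned this way. That share is near the 4.92% of all 11079 genes that were higher in shNFIB cells at day 0. With 1 library per condition the change of direction was not tested. Among the GTPases, *Tgtp1* went from a log2 ratio of 2.45 to -3.20, *Tgtp2* from 3.40 to -1.80 and *Gbp7* from 1.26 to -1.16. In antigen presentation, the transporter genes *Tap1* and *Tap2* went from 1.43 to -1.85 and from 2.00 to -1.09. *Trim30a* (1.05 to -1.27) and *Phf11b* (1.75 to -1.73) are further interferon-responsive genes.

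Complement and acute phase genes turned as a list, with a median of 1.16 at day 0 and -1.15 at day 5. *Cfb*, complement factor B, went from 1.16 to -1.61 and *Serpina3n* from 1.12 to -2.35. The aldehyde dehydrogenase gene *Aldh1a7* (3.80 to -1.99) and the retinaldehyde reductase gene *Dhrs3* (1.29 to -1.28) turned likewise. The other genes were *Cdo1* (1.56 to -1.91), *Col23a1* (1.03 to -2.09), *Mgp* (1.49 to -1.55), *Tnfrsf21* (1.26 to -2.63) and the histone gene *Hist2h3c2* (1.15 to -1.18).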

How the results depend on the processing

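The counts of genes past 2-fold depended on how low values were treated. They were 357 higher in shNFIB and 583 higher in shMLL1 cells as reported, 195 and 372 with a pseudocount of 1, 195 and 344 with an RPKM over 1 in both libraries, and 154 and 297 with an RPKM over 5 in at least 1. With no filter they were 869 and 1208 over 19254 genes, and counting intervals wholly beyond 2-fold left 236 and 385. The difference of the changes from day 0 gave 197 and 680, so the excess on the side of shMLL1 cells was larger there. More genes were higher in shMLL1 than in shNFIB cells under every one of these settings.

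The median log2 ratio of 0.01 became -0.016 under median-of-ratios scaling, 0.035 under quantile normalization, 0.024 with an RPKM over 5 and -0.031 with no filter, and no scaling moved it by more than 0.1. A pseudocount of 1 lowered the number of histone genes higher in shMLL1 cells from 27 to 16. With it 34 of 55 gene ratios lay outside their counting interval, as follows from its construction for low genes. Some of these, such as *Col2a1*, lay outside it as reported. Under quantile normalization 8 of 55 gene ratios lay outside their interval, and *mt-Cytb* no longer passed 2-fold. With division by *Gapdh*, tried on 11 genes, 9 lay outside their interval. This division turned the sign of *Ash2l* (to 0.06), *Cebpb* (to 0.10) and *Rbbp5* (to 0.27). No paired analysis was possible because each condition has 1 library and no replicate number. The depth of the shNFIB library limits genes near 0, and the spread between cultures is unknown for every value.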

Other observations

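A few genes outside the rule for named genes, chosen after their values were seen, had patterns that belong to a single line. *Nlrp3*, which encodes an inflammasome sensor (chromosome 11 from 59541568 to 59566956), had an RPKM of 4.90 at day 0 and 3.98 at day 5 in shNFIB cells. In the other 6 libraries it lay between 0.0092 and 0.0638. At day 5 it had 256 reads in shNFIB cells against 4 in shMLL1 cells. *Rnf130*, also on chromosome 11, had the same shape, with 8.77 and 12.03 in shNFIB cells and at most 1.30 elsewhere.

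The extremes over all gene types were a pair of near-identical 7SL RNA genes on chromosome 12. *Rn7s1* had an RPKM of 43.1 in shNFIB cells against 0.437 in shMLL1 cells at day 5, and *Rn7s2* had 0 and 40.7. Their sums were 43.1 and 41.2, so the copies differ in opposite directions while the total does not pass 2-fold, and the ratio of a single copy of such a family is not interpretable on its own.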
